A study of Caenorhabditis elegans with 2 samples.

Results

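The 6 genes hsp-1, hsp-3, hsp-4, hsp-6, hsp-70 and hsp-110 of Caenorhabditis elegans, which encode members of the HSP70 chaperone family, were located in the WBcel235 annotation by name and examined for peaks of the zinc finger transcription factor ZTF-11. All 6 are among the 19973 nuclear protein-coding genes of that annotation. The list of genes was chosen because hsp-3 holds a peak in the most selective list, so its values and those of its relatives are given as a description, with no test.

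HSP70 proteins bind exposed hydrophobic stretches of unfolded proteins and release them in a cycle of ATP binding and hydrolysis. J-domain proteins deliver the substrates and start hydrolysis, and nucleotide exchange factors reopen the cycle. Each compartment of the cell has its own HSP70, and many of their genes are induced when misfolded protein accumulates. In the cytosol this response runs through the factor HSF-1 and heat shock elements, and in the endoplasmic reticulum through the unfolded protein response. ZTF-11 belongs to the Myt1 family, known for repressing non-neuronal genes during neurogenesis.

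The data are peak lists from chromatin immunoprecipitation with sequencing (ChIP-seq) of eGFP-tagged ZTF-11 in 2 biological replicates of 1 group. Both were whole third-stage (L3) larvae of mixed sex from strain OP236, which carries the mutation unc-119(ed3) on chromosome III and the inserted transgene wgIs236, so every library shares both. The tissue was not separated, so a peak cannot be given to a cell type, and no untagged or other comparison list was used here. Replicate 1 held 30000 peaks, replicate 2 held 2036, the list of both replicates pooled held 631, and the list that the authors thresholded on the repeatability of ranks held 96. By the names they were deposited under, the replicate and pooled lists served as input to that step and hold background regions beside peaks, so an entry in them is called a peak here without being a call above background. The read depth behind these lists is unknown, so the replicates' numbers cannot be set against their depths. Each peak carries the authors' signal score, which is used here only to rank peaks within a list, with rank 1 the strongest.

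Upstream sequence of 3 genes is given first, because it shows what lies under the peaks and what does not. The runs are in the orientation of the gene, 5′ to 3′, from the RefSeq copy of WBcel235, the sequence of ce11, and overlap no annotated exon. Capitals mark matches to the motifs described further down. The hsp-1 run covers bases 450 to 201 upstream (plus strand, chrIV:17278509-17278758) and holds the summits of both replicates. The hsp-4 run covers bases 300 to 1 upstream of the nearest relative of hsp-3 (minus strand, chrII:7352646-7352945). The F44E5.4 run covers bases 300 to 1 upstream of a further HSP70 gene (minus strand, chrII:11759312-11759611).
hsp-1: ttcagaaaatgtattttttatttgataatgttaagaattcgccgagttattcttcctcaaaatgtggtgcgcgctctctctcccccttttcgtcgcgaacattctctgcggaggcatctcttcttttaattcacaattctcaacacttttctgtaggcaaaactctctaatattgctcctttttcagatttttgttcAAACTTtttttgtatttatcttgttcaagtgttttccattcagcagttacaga
hsp-4: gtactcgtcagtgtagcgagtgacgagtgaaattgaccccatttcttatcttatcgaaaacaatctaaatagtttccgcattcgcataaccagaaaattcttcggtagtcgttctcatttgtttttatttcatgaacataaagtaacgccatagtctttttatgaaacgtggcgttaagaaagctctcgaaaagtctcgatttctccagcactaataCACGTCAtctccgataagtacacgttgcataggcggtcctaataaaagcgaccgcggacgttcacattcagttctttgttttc
F44E5.4: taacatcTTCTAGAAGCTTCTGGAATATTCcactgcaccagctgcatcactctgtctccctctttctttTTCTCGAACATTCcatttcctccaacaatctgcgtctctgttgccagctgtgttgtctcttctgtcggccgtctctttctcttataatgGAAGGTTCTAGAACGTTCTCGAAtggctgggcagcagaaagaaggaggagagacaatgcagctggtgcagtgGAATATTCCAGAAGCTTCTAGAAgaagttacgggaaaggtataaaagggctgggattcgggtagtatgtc

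A gene was counted when a summit lay within 1000 bp of its annotated 5′ end or inside its body. All 6 members had such a peak in the replicate 1 list, where 67.3% of all nuclear protein-coding genes did. In replicate 2 the count was 2 of 6, hsp-1 and hsp-3, against 8.1% of all genes. The same pair had a peak in the pooled list, against 2.63%. In the thresholded list hsp-3 alone had one, against 0.28% of all genes and 0.549% of the 2731 genes on X. When replicate 1 was limited to its 2036 strongest peaks, as many as replicate 2 has, 3 members remained, hsp-1, hsp-3 and hsp-110, against 8.44% of all genes. These shares are the background of each list, and because the members were chosen from these lists nothing is read from their counts.

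**Figure D1:**
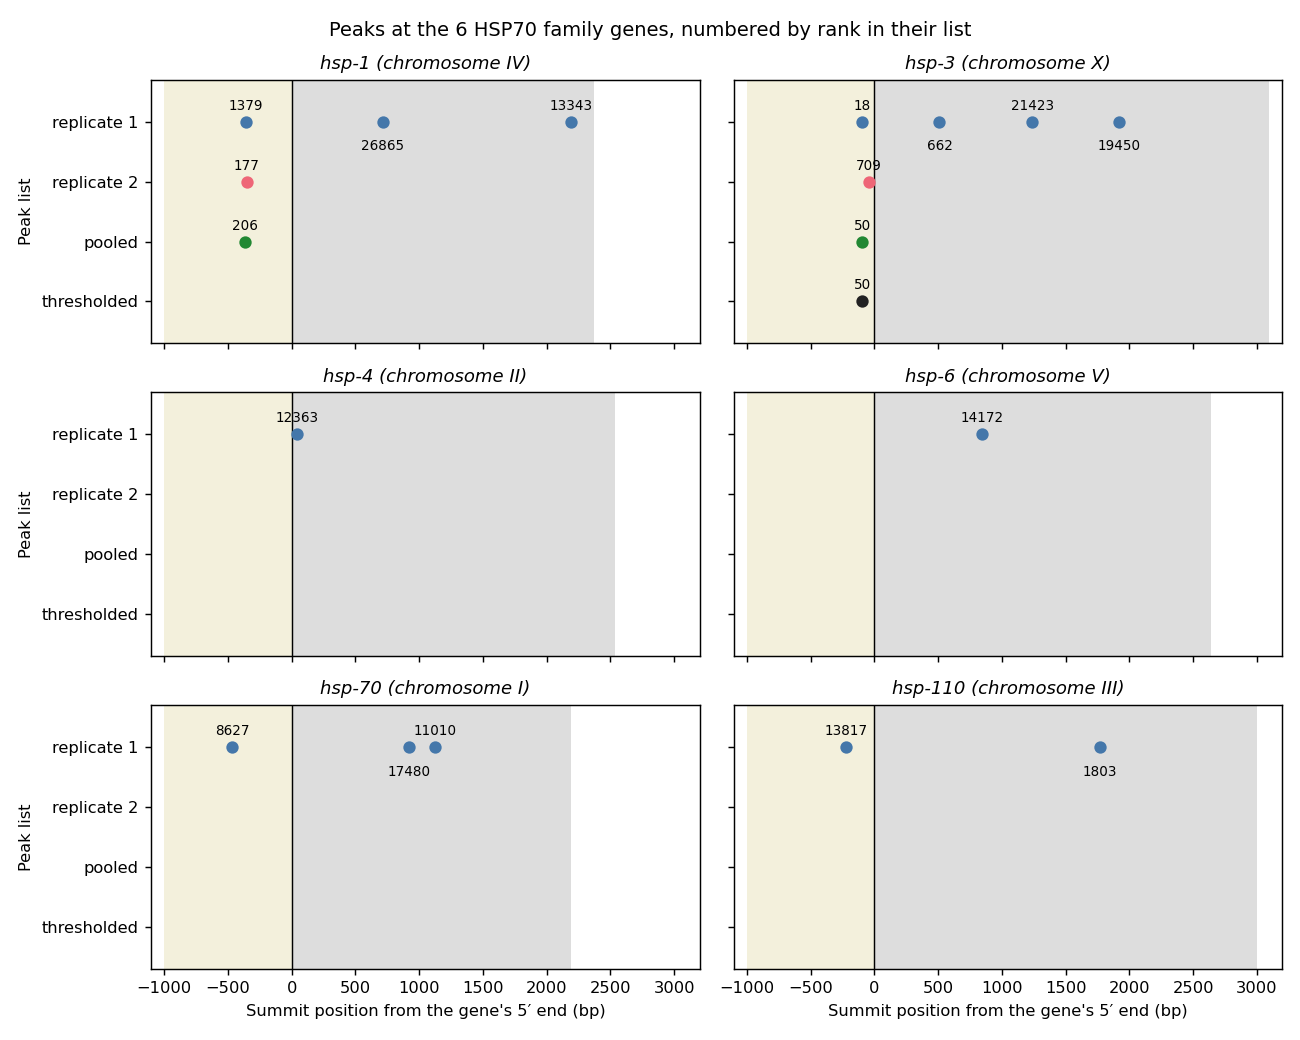
Positions of the peak summits at each HSP70 family gene, in bp from its 5′ end in the direction of transcription (horizontal axis), in each of the 4 lists (vertical axis); numbers are ranks within the list, yellow is the 1000 bp upstream window and grey the gene body. hsp-1 and hsp-3 have a summit upstream of the gene in both replicates and in the pooled list, while hsp-4, hsp-6, hsp-70 and hsp-110 have points in the replicate 1 list only.

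hsp-3 (WBGene00002007) encodes an HSP70 of the endoplasmic reticulum, an orthologue of the mammalian chaperone BiP. It lies on the minus strand at chrX:6089028-6092124. Its promoter peak in replicate 1, at chrX:6092060-6092379, had a signal score of 33.8, a -log10 q-value of 2.16 and rank 18 of 30000. In replicate 2 the peak at chrX:6091989-6092348 had a score of 17.4, a -log10 q-value of 0.0964 and rank 709 of 2036. A -log10 q-value near 0 means that the peak did not stand out from its control by that measure. The gene was thus near the top of the first list and in the upper part of the second. Scores of different lists are not on a shared scale. The pooled and thresholded lists hold the replicate 1 interval again, with a score of 50.1, a -log10 q-value of 1.30 and rank 50 in each.

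The replicate 1 summit lay 96 bp upstream of the hsp-3 5′ end and the replicate 2 summit 45 bp upstream. They were 51 bp apart, and the peaks overlapped by 289 bp. Over all nuclear protein-coding genes, 13 had a stronger peak than hsp-3 in replicate 1, 605 in replicate 2 and 17 in the pooled list, by the same rule. The thresholded list ended at a signal score of 41.0, and the strongest pooled peak left out of it had 40.98, so hsp-3 stood above that edge.

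Replicate 1 listed 3 further peaks in the body of hsp-3, none of which overlapped a replicate 2 peak. The strongest, with a score of 18.2 and rank 662, had its summit in a coding exon 510 bp downstream of the 5′ end. The annotation gives hsp-3 a shorter transcript, C15H9.6a.1, that starts 339 bp further downstream. That summit lies 171 bp inside this transcript, while the promoter summit lies 435 bp upstream of it. The other body peaks, one in an intron and one in a coding exon, had ranks 21423 and 19450.

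The neighbouring gene C15H9.5 is transcribed away from hsp-3, and the space between them is 1175 bp. It held 2 replicate 1 peaks. The second, just outside the 1000 bp window, had its summit 1085 bp from hsp-3 and 91 bp upstream of C15H9.5, with a score of 20.9 and rank 264. No peak of replicate 2, of the pooled or of the thresholded list lay between 1000 and 3000 bp from the hsp-3 5′ end.

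hsp-1 (WBGene00002005) encodes the constitutive HSP70 of the cytosol, the counterpart of mammalian HSC70. It lies on the plus strand at chrIV:17278959-17281330. Its upstream peak had a score of 16.05, a -log10 q-value of 1.36 and rank 1379 in replicate 1, at chrIV:17278440-17278759. In replicate 2, at chrIV:17278429-17278788, it had a score of 21.6, a -log10 q-value of 0.38 and rank 177. The order of the 2 genes was therefore opposite in the replicates, with hsp-3 ahead in replicate 1 and hsp-1 ahead in replicate 2. In the pooled list hsp-1 had a score of 32.9, a -log10 q-value of 0.40 and rank 206, under the score at which the thresholded list ended.

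The summits lay 359 bp upstream of the hsp-1 5′ end in replicate 1, 350 bp in replicate 2 and 367 bp in the pooled list. Those of the replicates were 9 bp apart. The pooled summit was 90 bp beyond the end of F26D10.23, a noncoding RNA gene at chrIV:17278413-17278502, whose 5′ end is the nearer at 179 bp. For genes whose transcripts are trans-spliced, transcription can start upstream of the annotated 5′ end. Whether this holds for hsp-1, and to which of the 2 genes the peak belongs, was not tested. Replicate 1 listed 2 weaker peaks in hsp-1 coding exons, at ranks 26865 and 13343, and replicate 2 listed none there.

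hsp-4 (WBGene00002008, chrII:7350112-7352645, minus strand) encodes the other BiP-type chaperone of the endoplasmic reticulum. Its longest coding sequence was 77.2% identical to that of hsp-3, the highest value among the 15 pairs of members, which otherwise ranged from 46.3% to 65.9%. Replicate 1 held 1 peak there, with its summit 46 bp inside the 5′ UTR, a score of 9.49 and rank 12363. The other lists held none within the rule. The close pair of chaperone genes thus differed in the lists, with hsp-3 in all 4 and hsp-4 in 1.

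hsp-6 (WBGene00002010, chrV:4824124-4826760, minus strand) encodes the mitochondrial HSP70, known as mortalin in mammals. Its single peak, in a coding exon 844 bp from the 5′ end, had a score of 9.04 and rank 14172 in replicate 1. A replicate 2 peak at rank 1913 lay 2891 bp upstream, outside the window. hsp-70 (WBGene00002026, on chromosome I) encodes a heat-inducible cytosolic form. It had 3 replicate 1 peaks, the strongest 466 bp upstream with a score of 10.7 and rank 8627, and the other two overlapping each other in coding sequence at ranks 11010 and 17480.

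hsp-110 (WBGene00016250, chrIII:8443910-8446909, minus strand) encodes an HSP110, a diverged relative that serves as nucleotide exchange factor for HSP70. Replicate 1 placed its stronger peak in a coding exon 1766 bp from the 5′ end, with a score of 15.3 and rank 1803. The peak 222 bp upstream of hsp-110 had a score of 9.13 and rank 13817. Of the 14 member peaks of replicate 1, 9 ranked below 10000, and 2 overlapped a replicate 2 peak, those upstream of hsp-1 and hsp-3. By position, 4 summits lay upstream, 1 in a 5′ UTR, 8 in coding exons and 1 in an intron.

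**Figure D2:**
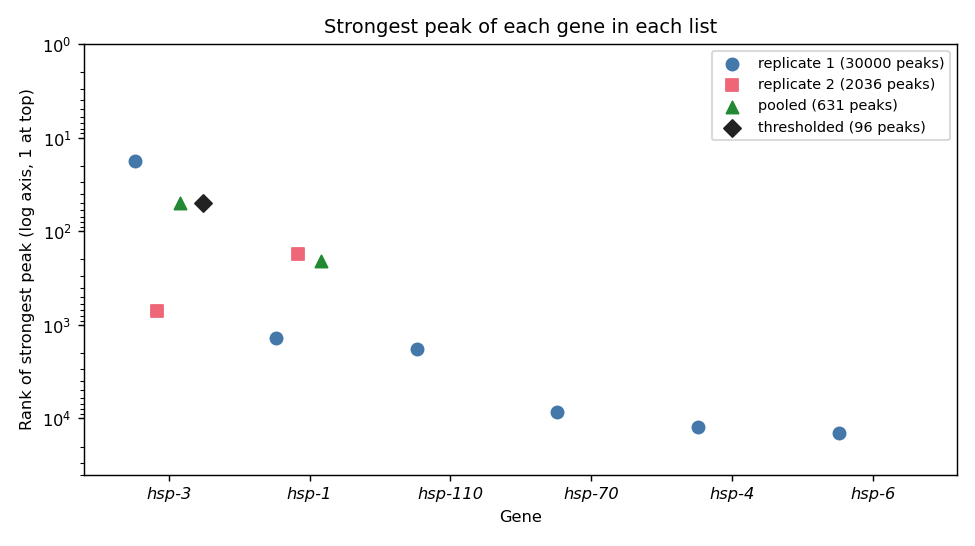
Rank of the strongest peak of each HSP70 family gene (horizontal axis) in each list (vertical axis, log scale with rank 1 at the top), with the number of peaks per list in the legend. hsp-3 leads in replicate 1 at rank 18 and stands at 709 in replicate 2, hsp-1 stands at 1379 and 177, and the 4 other genes have no point outside replicate 1.

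Sequence copies were examined because HSP70 genes resemble each other. All 31-base words under the strongest replicate 1 peak of each member occurred once in the genome. Over the gene bodies, 96.8% of these words were unique in hsp-1, 99.9% in hsp-70 and 100% in hsp-3, hsp-4, hsp-6 and hsp-110. The labels and file records state neither the read length nor how reads with several matches were handled.

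The base composition of the hsp-3 promoter stood apart from the other members. The 300 bases upstream of hsp-3 were 51.0% G or C, more than 99.4% of the promoters of nuclear protein-coding genes, whose median was 33.3%. The values were 29.3% for hsp-1, 30% for hsp-6, 35.3% for hsp-110 and 40% for hsp-4 and hsp-70. The hsp-3 peak itself held 55% G or C in replicate 1 and 57.5% in replicate 2. The median of all nuclear peaks was 40% in replicate 1, 33.9% in replicate 2 and 41.2% in the thresholded list. The hsp-1 peak held 35.0% and 34.7%. The part of base composition in the ranks was not tested.

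Motifs were searched on both strands in the 500 bases upstream of every nuclear protein-coding gene. AAGTTT, the core of Myt1-family sites, was found at hsp-1, hsp-6 and hsp-110, so at 3 of 6 members, and at 61.6% of all promoters. At hsp-1 it lay 253 to 248 bp upstream, inside the peaks of replicate 1, replicate 2 and the pooled list. The letters were absent from the 500 bases upstream of hsp-3, hsp-4 and hsp-70. GCGCAGGG, part of the motif that recruits the dosage compensation complex to X, was at 0 of 6 members and 0.145% of promoters.

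A heat shock element of 3 units, GAANNTTC followed by any 2 bases and GAA, was present upstream of 4 of 6 members, hsp-1, hsp-6, hsp-70 and hsp-110, and of 3.25% of all promoters. These 4 are the cytosolic and mitochondrial members. At hsp-1 it lay 144 to 132 bp upstream, outside the peak in each list. At hsp-110 both matches lay inside its upstream replicate 1 peak. The shorter TGACGTG was present upstream of hsp-3 and hsp-4, the 2 members of the endoplasmic reticulum, and of 4.27% of all promoters. It lay 132 to 126 bp upstream of hsp-3, inside the peaks of all 4 lists, and 83 to 77 bp upstream of hsp-4, inside its replicate 1 peak. The elements TGACGTGG, which contains the shorter one, and the ER stress element, CCAAT followed by any 9 bases and CCACG, both known from the mammalian unfolded protein response, were at 0 of 6 members, and at 1.24% and 0.0401% of promoters. TGACGTG was searched after the longer form had no match at the members.

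The pattern of hsp-3 over the 4 lists was set beside that of the 33 other protein-coding genes, 8 of them on X, with a summit within 1000 bp of the 5′ end in every list. Likeness was the Euclidean distance between the log10 ranks of the strongest such peak over these 4 lists, of which the pooled and thresholded ones derive from the replicates. Each of these genes had the same rank in the pooled and thresholded lists, so that rank entered the distance through both. Nearest were nhl-2 and tag-340 on III, which share 1 peak, at a distance of 0.51 with ranks 26 in replicate 1, 1421 in replicate 2 and 93 in the pooled list. They were followed by bet-2 on X, at 0.58 with ranks 63, 577 and 68, and grk-1 on X, at 0.70 with ranks 62, 426 and 94. K12H4.5 on III was the fifth, at 1.102 with ranks 58, 76 and 41.

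**Figure D3:**
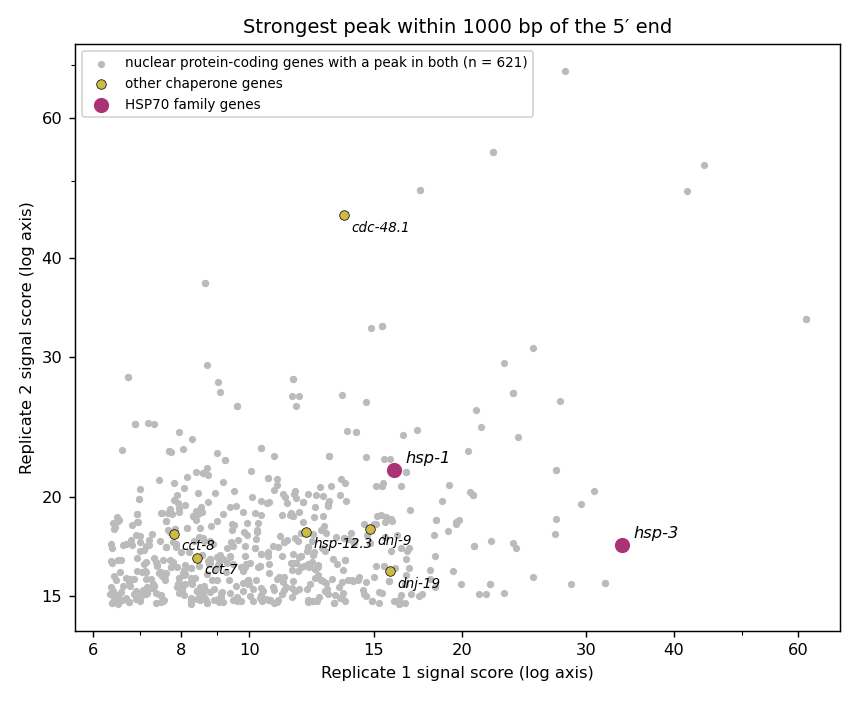
Signal score of the strongest peak within 1000 bp of the 5′ end in replicate 1 (horizontal, log axis) and replicate 2 (vertical, log axis), 1 point per nuclear protein-coding gene with such a peak in both (n = 621). hsp-3 lies far to the right at 33.8 in replicate 1 and near the middle at 17.4 in replicate 2, where the median of these genes was 16.9, while hsp-1 lies at 16.05 and 21.6.

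Other genes of the chaperone system were examined in 7 lists of 97 genes in all. Over these lists, 74 genes had a replicate 1 peak (76.3%), 13 a replicate 2 peak (13.4%), 9 a pooled peak (9.28%) and 1 a thresholded peak (1.03%). The corresponding shares of all genes are those given above. Neighbouring genes share peaks, and the 9 genes lay at 7 pooled peaks, so genes are not independent units.

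Among 6 other HSP70 and HSP110 relatives, F44E5.4 and F44E5.5 had a pooled peak and none had a replicate 2 peak. These 2 HSP70 genes diverge from a space of 350 bp at chrII:11759312-11759661, which held 10 matches to the heat shock element, some of them overlapping. Nearly all of this space lay under the peak at chrII:11759322-11759641, which had a pooled score of 31.4 and rank 251. The replicate 1 peak there had a score of 18.0 and rank 715. In the gene bodies of F44E5.4 and F44E5.5, 1.84% and 1.89% of 31-base words were unique, against 89.0% under the pooled peak. Most words of the 2 bodies thus occur more than once in the genome, and peaks inside them are uncertain, since the handling of reads with several matches is not known. TGACGTG was also present upstream of the relatives stc-1 and T14G8.3, at 82 and 121 bp, outside the peaks of each list.

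Of the 29 J-domain genes, 23 had a replicate 1 peak, 4 a replicate 2 peak and 2 a pooled peak. The 2 were dnj-19, with ranks 1492, 1163 and 223 in replicate 1, replicate 2 and the pooled list, and dnj-9, with 2102, 513 and 608. Both had their strongest summits upstream of the gene. For dnj-19 they lay at 466 bp in replicate 1 and 495 bp in replicate 2. For dnj-9 they lay further apart, at 587 bp and 324 bp. Of 6 nucleotide exchange factors and other cofactors, 4 had a replicate 1 peak, and the other lists held none. The strongest of them was that of unc-23, a BAG-domain gene, 38 bp upstream at rank 652.

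Among 13 HSP90, HSP60 and CCT genes, 12 had a replicate 1 peak, 5 a replicate 2 peak and 2 a pooled peak. The pooled peak was shared by hsp-60, the mitochondrial chaperonin gene, and its neighbour Y22D7AL.10, with a score of 34.1 and rank 183. In replicate 1 this peak had rank 155 with its summit 597 bp upstream of hsp-60 and 216 bp upstream of Y22D7AL.10. The replicate 2 peak of hsp-60, at rank 559, lay 6027 bp into the gene and was a different one. Of 14 small heat shock protein genes, 6 had a replicate 1 peak and hsp-12.3 alone had a replicate 2 and a pooled peak, at ranks 551 and 233. Their summits lay 924 and 896 bp downstream of the hsp-12.3 5′ end. F38E11.9, also on IV, had 5′ peaks with the same scores as hsp-12.3 in both replicates.

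In the list of 15 genes for folding and degradation in the endoplasmic reticulum, 12 had a replicate 1 peak, 2 a replicate 2 peak and 2 a pooled peak. The pooled peaks were those of crt-1, the calreticulin gene, at rank 348 in its body, and of cdc-48.1, an AAA ATPase gene for extracting proteins for degradation, at rank 43, which was also in the thresholded list. The cdc-48.1 promoter peak had rank 35 in replicate 2, with its summit 145 bp upstream. The strongest replicate 1 peak within 1000 bp of the cdc-48.1 5′ end, on either side, had rank 3201. The strongest replicate 1 peak of cdc-48.1, at rank 1320, lay 2000 bp into the gene. Of 14 regulators of the heat shock and unfolded protein responses, 12 had a replicate 1 peak and none a pooled peak. hsf-1, the heat shock factor gene, had the 1 replicate 2 peak of this list, at rank 1084 and 3067 bp into the gene. The strongest replicate 1 peak of the regulators was that of xbp-1, a factor of the unfolded protein response, at rank 5296.

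**Figure D4:**
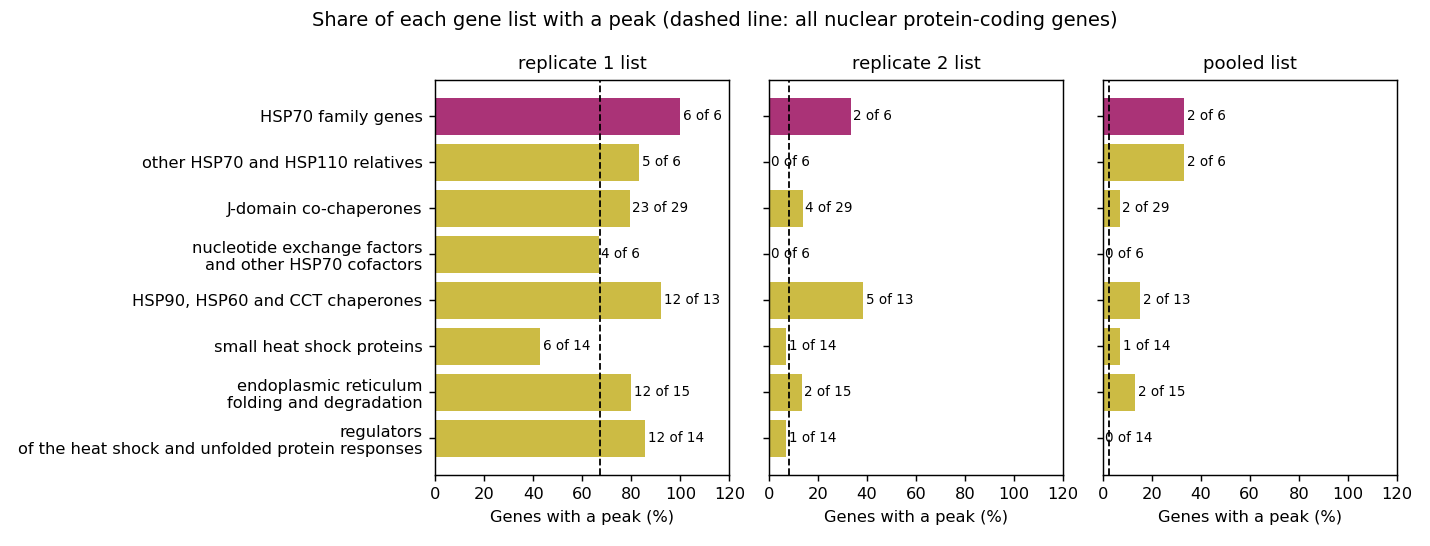
Percentage of the genes in each chaperone list (vertical axis) with a peak in the replicate 1, replicate 2 and pooled lists (horizontal axes), labelled with gene counts; the dashed line is the share of all nuclear protein-coding genes, at 67.3%, 8.1% and 2.63%. The HSP70 family genes, at 6, 2 and 2 of 6, were chosen with these lists known.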

How the data were processed

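ChIP-seq peak lists of 2 biological replicates were analysed. Each replicate with a control gave 1 list, per the labels' text records, both replicates pooled gave 1, and 1 was thresholded by the irreproducible discovery rate, each on ce10 and ce11. No source used here names the peak caller, the aligner or the threshold. Per peak, the authors deposited a signal score on a scale not given here, a -log10 q-value and the summit, whose offset was used for position. No read numbers are given, so precision from depth is unknown.

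The ce11 peaks, 1-based, were joined to Ensembl 115 genes of WBcel235; all peak ends lay within its chromosomes. Ranks are by signal score, ties at the lowest. Coding sequences were aligned globally (match 2, mismatch -1, gap opening -5, extension -1). Python 3.11.15, pandas 2.3.3 and Biopython 1.88 were used, and the gene assignment was tested on simulated peaks. Only counts and values are given, since a single group of replicates and genes chosen from these data allow no test. The members and lists were chosen with earlier results of these data known. Of the chaperone lists, genes with a pooled or thresholded peak were named, or else the strongest gene in each replicate; the 5 genes most like hsp-3 were named. The symbols daf-21, hsp-16.11, hsp-16.49 and hsf-2 matched no gene. The sequence upstream of hsp-3 is not reported here. Windows, thresholds, overlap rules and left-out replicates were varied.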

Additional observations from a re-analysis of the deposited data

How the results depend on the processing

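Changing the window to 500 or 2000 bp, leaving out gene bodies, using the 5′ end of any transcript or counting any overlapping base left the number of members with a peak as it was in each of the 4 lists. The counts moved with the length of the lists. For replicate 1 the 6 members became 3 with as many peaks as replicate 2 has, and 1 (hsp-3) with the 1000 or the 96 strongest. For replicate 2 the 2 members became 0 with the 96 strongest, and for the thresholded list the 1 became 0 in its stronger part, the 48 strongest. Without 1 replicate, the members with a peak in a replicate list ranged from 2 (without replicate 1) to 6 (without replicate 2). The member peaks shared by the replicates stayed at 2 under both stricter overlap rules. The rank of the hsp-3 peak was 37 in replicate 1 by -log10 q-value, with ties at their mean, and 28 in the pooled and in the thresholded list among nuclear peaks, since all mitochondrial peaks stronger than it were left out. On ce10 the hsp-3 peak also ranked 50 in the pooled and thresholded lists; in the replicate lists no ce10 peak on X matched its score, so that alternative could not be run there. Values were called moved when they differed by over 1.5 times. No paired analysis was possible because there is 1 group. Read depth is unknown, so a gene without a listed peak is not shown to be unbound.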

Other observations

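The values of some chaperone genes, named after they were seen, lay apart in the replicates. hsp-90, the gene of the cytosolic HSP90, had a replicate 1 peak at rank 139 with a score of 23.1, 3174 bp into the gene, and no replicate 2 peak. dnj-12, a J-domain gene, had a replicate 2 peak 24 bp upstream at rank 278 and no replicate 1 peak. Of the 8 CCT chaperonin genes, 7 had a replicate 1 peak, 4 a replicate 2 peak and 0 a pooled peak. The shares of all nuclear protein-coding genes were 67.3%, 8.1% and 2.63%. The CCT genes were picked after their values were seen, so nothing is read from these counts. cct-1 had its replicate 2 peak 231 bp upstream at rank 338 of 2036, and its single replicate 1 peak, in the gene, at rank 22109 of 30000. The replicate 2 peaks of cct-8 and cct-7 lay 453 and 318 bp upstream, at ranks 572 and 905. Their strongest replicate 1 peaks, at ranks 10503 and 6863, were at other sites, 6022 and 1456 bp downstream of the 5′ end. Both genes also had weaker replicate 1 peaks within 1000 bp of the 5′ end, with scores of 7.83 and 8.43. For cct-5 the replicate 2 peak lay 1090 bp downstream at rank 1798, and the strongest replicate 1 peak 8180 bp downstream at rank 9745. The lists differ in length, so these ranks give no order between the replicates.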
